A study of Mus musculus with 6 samples.

Results

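Mir122 encodes miR-122, the abundant microRNA of hepatocytes, and the results below follow the 5' ends left by its primary transcript in 6 mouse tissues. The locus and its 11 kb region, positions 65403001 to 65414000 on the plus strand of chromosome 18 (build mm9 throughout), were chosen by the tag counts of these same libraries, so its levels by tissue are a description and no test is attached to them. The region held 3536 of 839877 unique tags (0.421%), on 23 of 449338 distinct 5' ends. The libraries came from whole liver, kidney, spleen, lung, ovary and brain of adult mice of the BALB-c background, with no treatment given in the labels and 1 library per tissue. Each library is labelled as replicate 1, with no second replicate of any tissue analysed here and no number of animals given, so no test between tissues was possible. Parallel analysis of RNA ends (PARE) ligates an adaptor to polyadenylated RNA that carries a 5' monophosphate, and each tag of about 20 nt marks 1 such end.

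A microRNA is cut out of a longer, capped and polyadenylated primary transcript. The nuclease Drosha opens the transcript at both sides of a hairpin. The hairpin goes on to Dicer, which cuts off its loop, while the polyadenylated fragment 3' of the hairpin keeps a 5' monophosphate and is destroyed by 5' to 3' exonucleases such as Xrn2. Drosha's cut on the 5' side leaves the first base of the 5' arm, which in miR-122 is the first base of the mature microRNA. In liver, miR-122 is known for its part in lipid metabolism and hepatocyte identity.

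The liver library held 78952 unique tags, the deepest library (lung) 493121 and the shallowest (ovary) 29213; kidney had 162270, spleen 42939 and brain 33382. Levels are tags per 1000000 unique tags (CPM), and 1 tag was worth 2.03 CPM in lung and 34.2 CPM in ovary. All intervals are exact 95% intervals. The limit given for a count of 0 is instead the level of 3 tags in that library. Both cover counting error only, since PCR reads without molecular identifiers are not independent molecules. The tissue labels could be checked at few marker genes, because gene names were reached only through the first 50 transcribed bases of RefSeq genes. Of 27 markers, 16 were in that table and 3 had a tag. Kap, the androgen-regulated protein of kidney tubules, had 1049 tags in kidney, 1 in liver, 3 in spleen, 145 in lung, 2 in ovary and 0 in brain. Sftpa1, a surfactant protein, had 23 tags, all in lung, and Gpx3 had 1, in kidney. None of the 8 hepatocyte markers, 6 of which were in the table, had a tag there.

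Nearly all tags of the region began at a pair of bases. The base after the hairpin, position 65408578, and its neighbours within 1 nt held 3314 tags, or 93.7% of the region. The first base of mature miR-122, position 65408520 and 58 nt upstream, held 202 tags within 1 nt (5.71%). The remaining 20 tags lay on 19 other ends: 2 tags 5' of the mature start, 1 inside the hairpin and 17 on the 3' side. No tag fell on the minus strand of the region, and none of the region's tags was listed at a second location.

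**Figure D1:**
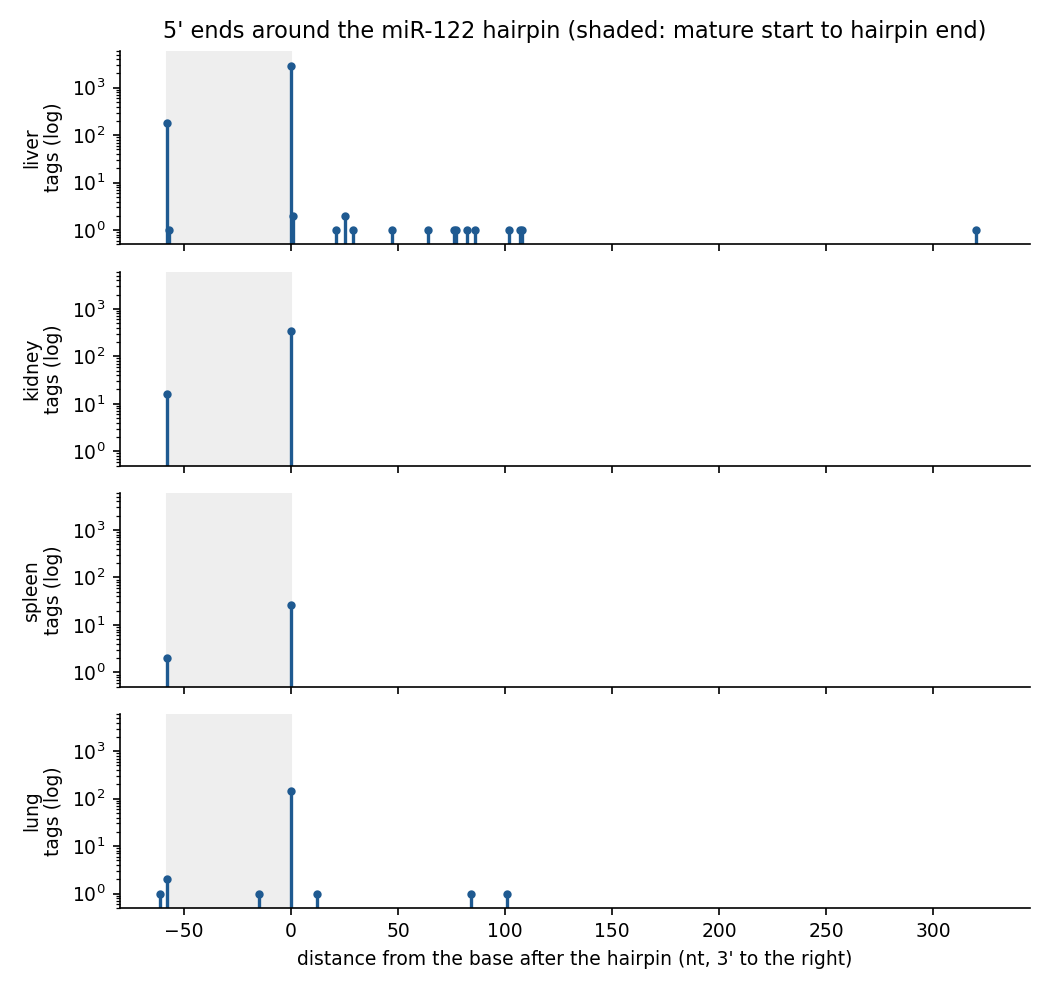
Tags (log axis) by distance in nt from the base after the hairpin, in the liver, kidney, spleen and lung libraries; each line with its dot is 1 distinct 5' end, and the shaded stretch runs from the mature start to the hairpin end. The tallest line stands at 0 in every panel, with 2796 tags in liver and 340 in kidney, and the next at -58; the tags 3' of the hairpin are single or paired counts. One liver tag at -1623 nt lies outside the plot, and the ovary and brain libraries, with 2 tags and 1 tag at 0, are not drawn.

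The hairpin end was counted 2798 times in liver, 340 in kidney, 26 in spleen, 147 in lung, 2 in ovary and 1 in brain. The liver level was 35439 CPM (interval 34138 to 36777) and the kidney level 2095 CPM (1878 to 2330). Spleen stood at 606 CPM (396 to 887) and lung at 298 CPM (252 to 350). Ovary, at 68.5 CPM (8.29 to 247), and brain, at 30.0 CPM (0.758 to 167), rest on the few tags just given. Every library thus had a tag at the base after the hairpin, and in each the strongest end of the region was that same base. In bulk tissue, fewer cells of a type and less RNA per cell cannot be told apart. Liver exceeded kidney 16.9-fold (15.1 to 18.99), spleen 58.5-fold (39.9 to 89.8) and lung 119-fold (100.7 to 141). These sizes depend on the scaling: with a median of ratios, liver exceeded spleen 91.1-fold and lung 188-fold. Kidney in turn exceeded spleen 3.46-fold (2.32 to 5.37). Spleen exceeded lung 2.03-fold (1.28 to 3.10), but with a trimmed mean of M values over all windows spleen, at 510 CPM, stood below lung, at 526 CPM. Lung was 4.35 times ovary (1.18 to 36.3). With each distinct tag sequence counted once, kidney stood below spleen (ratio 0.567) and lung below ovary (0.661). These 2 ratios rest on only 7 distinct sequences in kidney, 3 in spleen, 8 in lung and 1 in ovary. They are scaled to all distinct sequences of a library, 113087 in kidney and 27464 in spleen. Tags at 1 base give few distinct sequences however often they are read, so these ratios do not give the order of levels. Ovary and brain did not differ beyond counting error (ratio 2.29, interval 0.119 to 135).

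At the mature start there were 182 tags in liver, 16 in kidney, 2 in spleen, 2 in lung and none in ovary or brain. The liver level at this base was 2305 CPM (1982 to 2666), that of kidney 98.6 CPM (56.4 to 160), that of spleen 46.6 CPM (5.64 to 168) and that of lung 4.06 CPM (0.491 to 14.7). A count of 0 allowed up to 3 tags, or 103 CPM in ovary and 89.9 CPM in brain, both above the levels of spleen and lung. Liver exceeded kidney 23.4-fold at this base (14.0 to 41.8), spleen 49.5-fold (13.5 to 412) and lung 568-fold (155 to 4729). The liver level stood 22.4-fold above this limit of 3 tags in ovary and 25.7-fold above that in brain. The exact intervals of liver over each library, which also hold the counting error of liver, begin at 18.1 for ovary and 20.6 for brain. Kidney and spleen did not differ beyond counting error (ratio 2.12, interval 0.498 to 18.98).

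**Figure D2:**
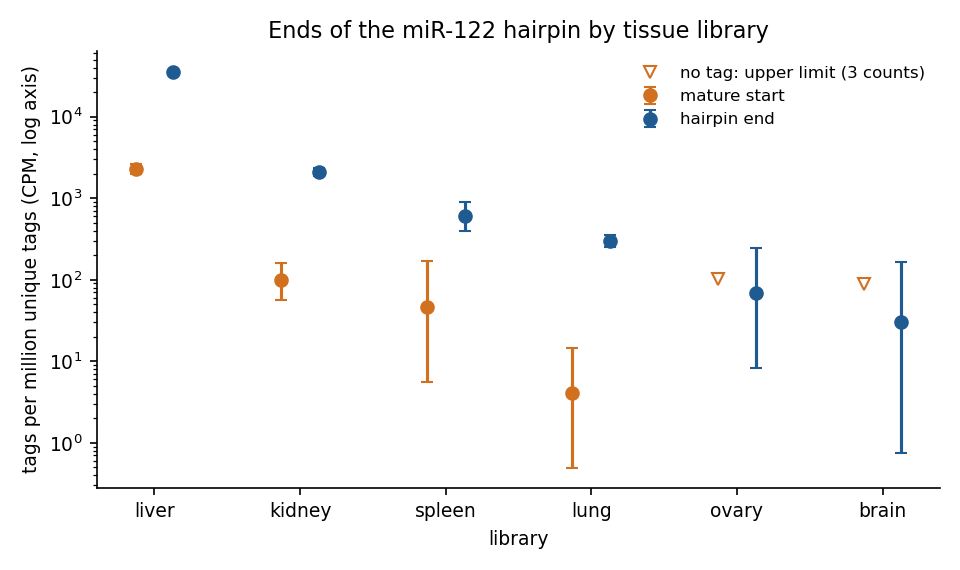
Level in tags per 1000000 unique tags (CPM, log axis) at the mature start and at the hairpin end of miR-122, each within 1 nt, in the 6 libraries; points are counts scaled to CPM, bars exact 95% Poisson intervals, and open triangles the limit that a count of 0 allows. Liver lies above every other library at both ends (35439 CPM at the hairpin end, 2095 in kidney), and the ovary and brain intervals overlap.

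With 2796 tags at 1 base, the hairpin end was the strongest of the 45662 distinct ends in liver and took 3.54% of that library. The next strongest liver end had 2478 tags. The mature start of miR-122, with 181 tags at its strongest base, ranked 11 in liver. In kidney the hairpin end ranked 9 of 108193 ends, in spleen 88 of 25523 and in lung 134 of 270960. Both ends of the hairpin met a 10-fold lead of liver over the second highest library, a lead found at 52.9% of the 223 ends with at least 20 liver tags, so that such a lead was common among strong liver ends.

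The proportion between the mature start and the hairpin end could be read within each library, free of any scaling. The mature start made up 182 of 2980 tags in liver (6.11%, interval 5.27 to 7.03), 16 of 356 in kidney (4.49%, 2.59 to 7.20), 2 of 28 in spleen (7.14%, 0.877 to 23.5) and 2 of 149 in lung (1.34%, 0.163 to 4.76). Liver thus had 15.4 hairpin-end tags for each tag at the mature start, and kidney 21.3. The liver and kidney intervals overlap. The lung share lay below that of liver, with intervals that do not overlap, but it rests on 2 tags.

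The hairpin end was sharp to the base. In liver, 2796 of the 2798 tags within 1 nt began at position 65408578 itself (99.9%, interval 99.7 to 99.99), and the other 2 began 1 nt further 3'. All 340 kidney tags, 26 spleen tags and 147 lung tags began at that base. Outside the region, 26 liver bases had at least 100 tags. Each was set against all tags within 1 nt of it, and the median share was 75.6%. Of the 26, 23 had a lower share than the miR-122 hairpin end. They were not required to be the strongest base nearby, and the lowest share was 7.01%, so bases beside a stronger end are among them. The mature start was as sharp, with 181 of 182 liver tags (99.5%, 97.0 to 99.99) and all 16 kidney tags at 1 base.

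The window of 2 kb that holds the hairpin was dominated by this end in each library with enough tags to judge. The strongest base took 93.4% of the window's 2994 tags in liver, 95.5% of 356 in kidney, 92.9% of 28 in spleen and 95.5% of 154 in lung. A base with at least 50% of its window's tags occurred in 9.85% of the 457 liver windows with at least 20 tags. The same held for 8.41% of such windows in kidney, 23.0% in spleen and 6.24% in lung. Only 13 of the 457 liver windows had a higher share at 1 base. The median window had 13% of its tags at its strongest base in liver, 10.5% in kidney, 28.6% in spleen and 10% in lung.

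Ends elsewhere in the region were sparse. The 3' side held 14 tags on 13 ends in liver, or 177 CPM (96.9 to 298), and 3 tags on 3 ends in lung, or 6.08 CPM (1.25 to 17.8). Kidney, spleen, ovary and brain had none there, and a count of 0 allowed up to 3 tags, or 18.5 CPM in kidney and 69.9 CPM in spleen. The exact upper limit in kidney, 22.7 CPM, lies below the liver interval, and that in spleen, 85.9 CPM, does too. The hairpin end was also lower in both, however. As a share of the region's tags, liver had 0.467% there (0.256 to 0.783). Kidney had 0 of 356 (0 to 1.03%) and spleen 0 of 28 (0 to 12.3%), so these intervals overlap that of liver. The strongest of these ends, at position 65408603 and 25 nt 3' of the hairpin end, had 2 tags, and the others had 1 each, so no further end stood out by count. The liver ends began 21 nt after the hairpin end, and those of lung 12 nt after it, and no end was shared between them. Over all libraries 15 of the 16 ends lay within 108 nt of the hairpin end. The last was a single liver tag at 320 nt, and the remaining stretch up to the region's border, 5422 nt from the hairpin end, was empty.

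Single tags lay on the 5' side as well. One liver tag began at position 65406955, or -1565 nt from the mature start. A lung tag at position 65408517 lay 3 nt before the mature start, and another, at 65408563, lay 15 nt before the hairpin end and was the only end found inside the hairpin. Ends of these kinds, at 1 tag each, are at the limit of what the depth can show.

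The tags of the 2 hairpin ends differed in length. MmeI, the enzyme that releases the tags, cuts at a distance from its recognition site in the adaptor and leaves products of 20 or 21 nt. At the mature start 126 of 181 liver tags were 21 nt long (69.6%, interval 62.4 to 76.2) and 10 of 16 in kidney (62.5%, 35.4 to 84.8). At the hairpin end it was 58 of 2796 in liver (2.07%, 1.58 to 2.67), 2 of 340 in kidney (0.588%, 0.0713 to 2.11), 4 of 26 in spleen (15.4%, 4.36 to 34.9) and 2 of 147 in lung (1.36%, 0.165 to 4.83). The share over all unique tags was 37.3% in liver, 37.6% in kidney, 30.2% in spleen and 39.4% in lung. Both ends thus departed from the library average in liver, the mature start upward and the hairpin end downward. Such spread was usual among strong ends: 26 other liver ends with at least 100 tags ran from 0% to 83.2%, with a median of 9.76%.

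**Figure D3:**
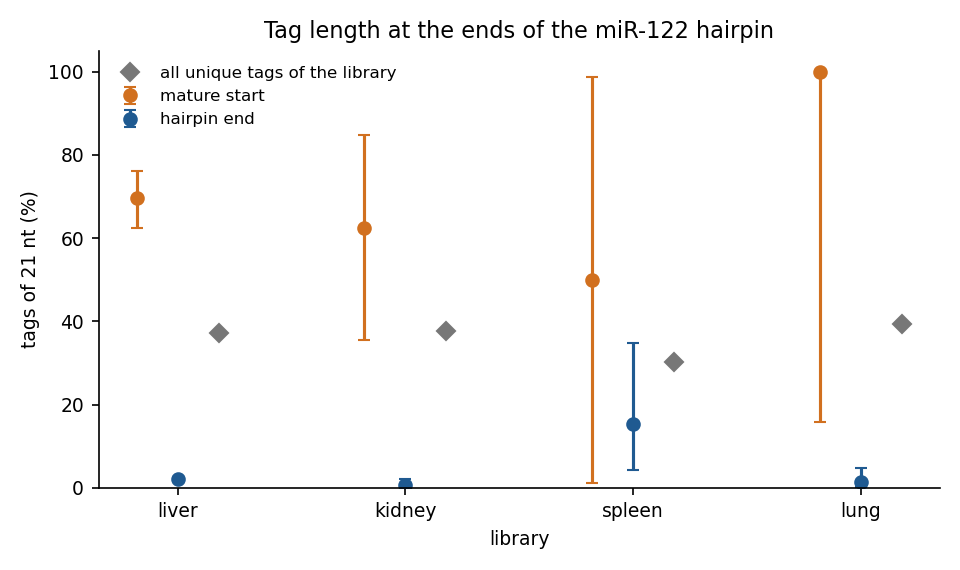
Share of tags that are 21 nt long (percent) at the mature start and at the hairpin end of miR-122, beside the share over all unique tags, in the 4 libraries with tags at both ends; bars are exact 95% Clopper-Pearson intervals. In liver the mature start (69.6%) lies above the library share (37.3%) and the hairpin end (2.07%) below it; the spleen and lung points at the mature start rest on 2 tags each.

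The 2796 liver tags at the hairpin end were listed as 28 distinct sequences, of which 1 accounted for 2672 tags (95.6%). Among the 2738 tags of 20 nt, 66 tags on 24 sequences differed from that sequence at 1 base (2.41%), and none differed at more. The share was 2.37% in kidney, with 8 of 338 tags, and the median over the 26 strong liver ends outside the region was 2.27%. Most of the distinct sequences at this end thus differed from the commonest one at a single base.

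The levels outside liver were set beside those of other regions with liver in the lead. Liver exceeded the second highest library beyond counting error in 271 windows of 2 kb with at least 20 liver tags (windows with no tag in any other library included), and 270 of them lay elsewhere in the genome. The kidney level at the hairpin end was 5.91% of the liver level (5.27 to 6.62), and the kidney levels of the other windows had a median of 8.33% (quartiles 4.42 and 17.2). In spleen the hairpin end stood at 1.71% of the liver level (1.11 to 2.51), against a median of 3.14%. In lung it stood at 0.841% (0.708 to 0.993), against a median of 2.91%, and 25 of the 270 windows were at or below it. In kidney the hairpin end thus lay within the quartiles of the liver-led windows, in spleen below their median and in lung below their lower quartile of 1.72%. The windows were chosen by their liver tags and counted whole, so these placements are a description. No spleen tag fell in 99 of the 270. Among 59 such windows with at least 100 liver tags, the lower quartile was 2.09% in spleen and 1.79% in lung, both above the hairpin end. In kidney their median was 6.43%. Tissue barcodes were added by ligation before the last PCR, and what part reads of a wrong barcode or liver RNA carried into other libraries had in these levels was not tested.

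**Figure D4:**
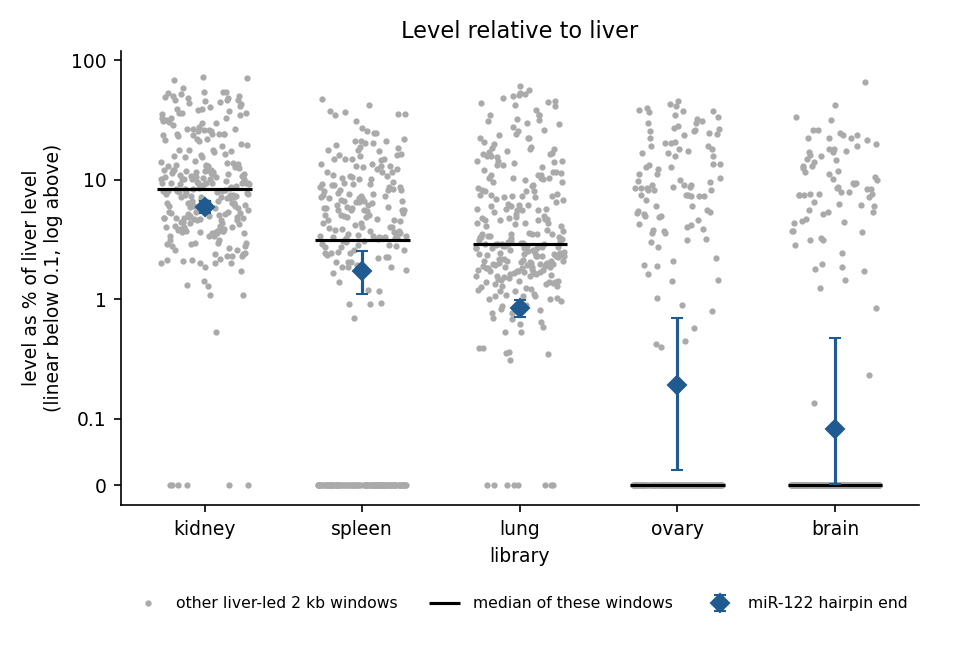
Level as a percentage of the liver level (linear below 0.1, log above) for the miR-122 hairpin end, with its exact 95% interval, and for 270 other windows of 2 kb led by liver (grey points, black line at their median), by library. The hairpin end lies at 5.91% in kidney, 1.71% in spleen and 0.841% in lung, each below the median window; in ovary and brain the median window had no tag.

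Across the 6 libraries, the ends with the pattern most like the hairpin end were sought among 317 ends outside the region with at least 100 tags in all, by Pearson's r of log2(CPM + 1). The median r over these ends was 0.17, and the libraries and their depths are shared by all ends, so r is given as a description. The mature start of miR-122 itself had r = 0.98. Outside the region, the end at position 90903659 on the plus strand of chromosome 5 came first (r = 0.98), with 117 liver tags, 41 kidney tags, 1 spleen tag and 4 lung tags. The end at position 46862679 on the minus strand of chromosome 17 had r = 0.98, with 138 tags in liver, 4 in kidney, 1 in spleen and 5 in lung. Of the next 3, those at positions 90905572 (r = 0.97) and 90905503 (r = 0.96) lie on the plus strand of chromosome 5, and that at 20281701 (r = 0.96) on the minus strand of chromosome 7. All 5 had their highest level in liver and no tag in ovary or brain.

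Other hairpins were placed on the deposited tags through RefSeq sequences, to see whether the miR-122 pattern of ends differed from theirs. miR-122 had no entry among these sequences, so its own positions were not checked against a sequence. Of 1005 hairpins, 133 could be placed, and 9 of these had at least 20 tags within 1 nt of the base after their 3' arm. The 5 with the most tags were let-7b with 1376, miR-24-2 with 528, miR-142a with 390, miR-126a with 335 and miR-214 with 111. Most of these tags came from lung, and in liver they numbered 36 for let-7b, 6 for miR-24-2, 9 for miR-142a, 7 for miR-126a and 0 for miR-214. The sequences of let-7b and miR-142a show where such ends lie. In the hairpins, from RefSeq (GRCm38.p6), capitals mark the 5' and 3' arms that become mature microRNAs. In the tags, from the deposited tables, the capital marks the first base, which is the measured end.
let-7b hairpin: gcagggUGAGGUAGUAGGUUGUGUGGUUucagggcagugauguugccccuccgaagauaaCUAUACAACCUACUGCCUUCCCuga
let-7b hairpin-end tag: Ctgaggcgcccagggacaca
miR-142a hairpin: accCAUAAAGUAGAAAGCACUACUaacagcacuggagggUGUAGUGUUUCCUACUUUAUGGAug
miR-142a hairpin-end tag: Tgagtgcactgtgggcttcg
miR-142a tag that begins 1 nt earlier: Atgagtgcactgtgggcttc
The let-7b tag begins at the last base of the listed 3' arm and runs past the hairpin, with 1360 tags at that base and 16 at the next. The miR-142a ends were split over neighbouring bases, with 320 tags at the base after the 3' arm and 70 at the base before it.

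The comparison was made in lung, the deepest library, where miR-122 had 147 tags at its hairpin end. The strongest base held 147 of 147 of these (100%, interval 97.5 to 100), against 1067 of 1076 for let-7b (99.2%, 98.4 to 99.6) and 402 of 402 for miR-24-2 (100%, 99.1 to 100). It held 298 of 303 for miR-126a (98.3%, 96.2 to 99.5) and 69 of 70 for miR-214 (98.6%, 92.3 to 99.96). For miR-142a it held 262 of 325 (80.6%, 75.9 to 84.8), below the interval of miR-122. Of the 5 other hairpins, 4 thus had at least 98.3% of these tags at a single base. In the next 300 nt, miR-122 had 3 lung tags, or 2.0% of these and the hairpin-end tags together (0.414 to 5.73). The share was 1.74% for let-7b (1.05 to 2.70), 0.248% for miR-24-2 (0.00628 to 1.37), 6.88% for miR-142a (4.46 to 10.1), 13.7% for miR-126a (10.3 to 17.7) and 10.3% for miR-214 (4.53 to 19.2). The miR-122 interval lies below that of miR-126a and overlaps those of the other 4. Of the measured hairpins with fewer tags, miR-671 at 32.5% (18.6 to 49.1) and miR-29c at 16.3% (7.32 to 29.7) also lay above it. Those of miR-24-1, at 6.67% (0.818 to 22.1), and miR-146a, at 0% (0 to 5.60), overlap it. In liver the miR-122 share in the same stretch was 0.462% (0.246 to 0.790), from 13 tags.

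The mature start of miR-122 held 1.34% of the lung tags at that base and the hairpin end together (0.163 to 4.76). Of the 5 other hairpins, 4 have a 5' arm in the table. The first base of that arm held 38.9% of such lung tags for let-7b (36.6 to 41.2), from 685 tags, and 0.307% for miR-142a (0.00777 to 1.70), from 1 tag. It held none for miR-24-2, beside 402 hairpin-end tags (0 to 0.913%), and none for miR-214, beside 70 (0 to 5.13%). The miR-122 share thus lay below that of let-7b, with intervals apart, and its interval overlaps those of the other 3. Of the measured hairpins with fewer tags, miR-146a also lay apart, at 35.4% (26.0 to 45.6) from 35 tags. The shares of miR-29c (2.38%, 0.0603 to 12.6), miR-24-1 (3.45%, 0.0873 to 17.8) and miR-671 (0%, 0 to 12.8) overlap that of miR-122. In kidney the tags numbered 16 at the mature start and 340 at the hairpin end of miR-122, and 957 and 153 for let-7b. The distance from the first base of the 5' arm to the hairpin end was 58 nt for miR-122, 58 for miR-24-2, 59 for miR-142a, 62 for miR-214 and 75 for let-7b.

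**Figure D5:**
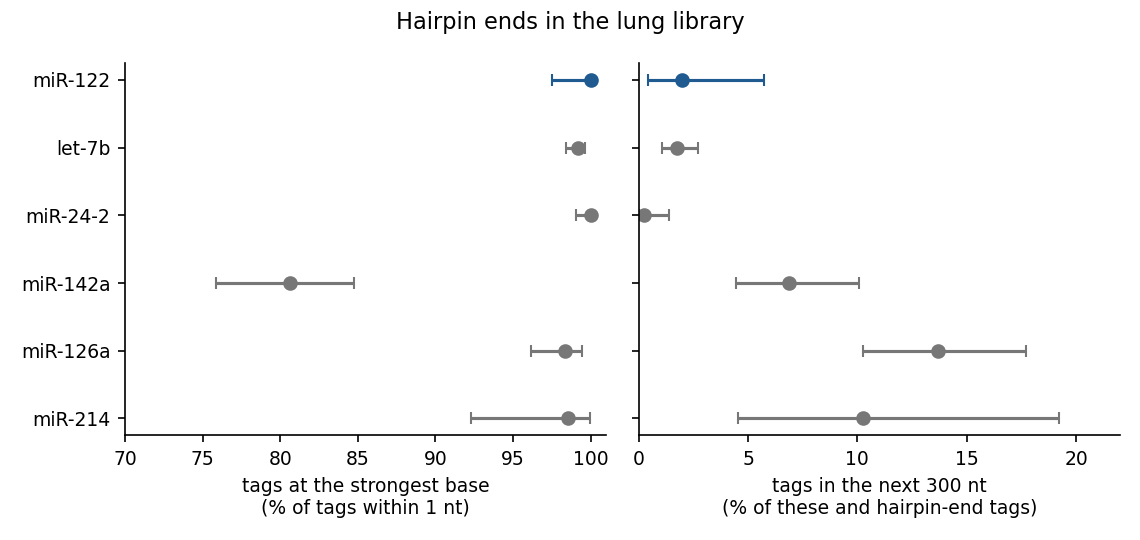
Hairpin ends of miR-122 (blue) and of the 5 other hairpins with the most tags (grey) in the lung library, with exact 95% Clopper-Pearson intervals: left, percentage of tags within 1 nt that begin at the strongest base (axis from 70%); right, tags in the next 300 nt as a percentage of these and the hairpin-end tags. miR-142a stands apart on the left at 80.6%, and miR-126a on the right at 13.7% against 2.0% for miR-122.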

How the data were processed

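Per the labels' protocols, polyadenylated RNA of each tissue was ligated to an RNA adaptor, purified again, reverse transcribed from an oligo(dT) primer, amplified, trimmed with MmeI, barcoded, amplified again and sequenced. Bowtie and mm9 are named in the submitters' processing notes, without a version. Its mismatch setting and the adaptor trimming were not given in the sources used here. In the deposited tables, a line gives a tag sequence, where it mapped and, per the accompanying description by the authors, its read count, which was used as deposited. Their browser display score was not used.

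Sequences listed at 2 locations of a library were left out (8.62% of the tags in liver to 17.2% in spleen). The 5' end was the first base on the plus strand and the last on the minus strand. The mature start and the hairpin end are the strongest bases within 5 nt of the positions in the rule, counted within 1 nt. Counts were scaled to 1000000 unique tags. Shares carry Clopper-Pearson, levels Poisson and ratios conditional binomial intervals. Windows were 2 kb long and strand-specific. A window led by liver had at least 20 liver tags and either no tag elsewhere or a lower bound above 1 for its ratio over the second highest library. Hairpins and marker genes were matched by the first 18 nt of a tag. Coordinates are those of the deposited tables, and no genome sequence was used.

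The named ends were the mature start, the hairpin end and the 10 others of the region with the most tags (18 of the 19 other ends tied at 1 tag, so all are described), the 5 most alike ends with at least 100 tags, and the 5 other hairpins with the most tags. The locus, the lists and the markers were chosen with earlier results of these data known. The marker lists of spleen, ovary and brain had no tag. The scripts, in Python 3.11.15 with pandas 2.3.3, numpy 2.4.6 and scipy 1.17.1, were tested on simulated data.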

Additional observations from a re-analysis of the deposited data

How the results depend on the processing

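No paired analysis was possible because each tissue has 1 library and the labels share only the replicate number 1. Counting the single strongest base, counting within 2 nt, a region of 2 kb either side and a 3' stretch of 1 kb or 300 nt (the last chosen after seeing the data) left every hairpin-end, mature-start and 3' value they apply to within its counting interval. Scaling moved the liver level beyond its counting interval in each case, and the kidney level except with all listed tags. The lung level left its interval only with a trimmed mean of M values. The spleen, ovary and brain levels stayed within theirs. The liver level was 32386 CPM with all listed tags as the total, 47433 with a trimmed mean of M values over all windows, 46225 with the same over windows with at least 50 tags (chosen after seeing the data), 50872 with a median of ratios and 39528 without the 10 strongest ends. The kidney level under the last 4 of these was 2562, 2352, 2476 and 2340 CPM, and the lung level with the first and second trimmed mean was 526 and 242 CPM. Of these scalings, the trimmed mean over all windows alone put lung above spleen (spleen over lung 0.970). It did not recover the depth of liver over lung in simulated libraries, whereas the version over deeper windows did. Those libraries shared a single pooled profile, with some windows raised in liver alone. The depth of spleen was not checked in them, so they do not decide the order of spleen and lung. Ratios between libraries other than liver over kidney were added after seeing the data. With the version over deeper windows, liver over kidney was 19.7-fold and liver over lung 191-fold. With the median of ratios, liver exceeded kidney 20.5-fold, spleen 91.1-fold and lung 188-fold. With the trimmed mean over all windows, liver exceeded spleen 92.9-fold and lung 90.1-fold. Counting each distinct sequence once gave 612 CPM in liver, 61.9 in kidney, 109 in spleen and 27.3 in lung, 41.3 in ovary and 35.1 in brain, with spleen above kidney (kidney over spleen 0.567) and ovary and brain above lung (lung over ovary 0.661). Under it the hairpin end of liver exceeded kidney 9.89-fold, spleen 5.61-fold and lung 22.5-fold, and spleen exceeded lung 4.01-fold. At the mature start liver exceeded kidney 11.5-fold, spleen 2.80-fold and lung 59.9-fold, and kidney over spleen was 0.243. These mature-start values rest on 2 distinct sequences in kidney, 2 in spleen and 1 in lung. Kidney and spleen had the same number, so their ratio only reflects the 113087 and 27464 distinct sequences of these libraries. The same count gave hairpin-end shares of the region of 55.6%, 77.8%, 60.0% and 57.1% in liver, kidney, spleen and lung. Such a count ignores how often a sequence was read. Tags at 1 base give few distinct sequences, so it does not give the order of levels at a single end. Its hairpin-end values rest on 7 distinct sequences in kidney, 3 in spleen, 8 in lung, 1 in ovary and 1 in brain. The share of windows with a dominant end was 5.79% in kidney, 5.27% in lung and 17.5% in spleen for windows with at least 10 tags, and 15.4% in kidney and 9.17% in lung for at least 50. Ovary and brain, the shallowest libraries, gave 2 tags and 1 tag, so their levels have wide intervals and their order was not resolved.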
